A study of Mus musculus with 12 samples.

Results

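Oligodendrocyte precursor cells and their lineage were followed through 6 genes, Pdgfra, Cspg4, Olig1, Olig2, Sox10 and Gpr17. The genes were chosen by name for their known place in this lineage, not by measured values, but with earlier results of these data known. They were read as the sum of their annotated transcripts, and are 6 of 55180 genes listed and 6 of 15013 genes detected here, meaning 10 counts or more in each library. All 6 genes passed that filter in all 6 libraries, with 410 to 2244 expected counts per gene and library. Levels are given in TPM (a share of all transcripts in the library), in which counts are divided by transcript length before scaling.

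The study asked what the RNA-binding protein Larp1 does in the mouse brain, by comparing Larp1 WT mice, which carry Nestin-Cre, with Larp1 cKO mice, which carry Nestin-Cre and are homozygous for floxed Larp1 (Larp1-flox/flox), on the C57BL/6J strain. Both genotypes therefore carry the Cre transgene, whose Nestin promoter is active in early progenitors of neurons and some glia, so the oligodendrocyte lineage can be among the recombined cells. The methods describe rRNA-depleted total RNA from posterior cortex of male mice, 3 per genotype, and the labels list 12 cortex samples as 3 replicates with 2 parts each for both genotypes. The age of the sequenced mice is not stated in those sources. The files hold 1 library for each of 6 numbered mice (678, 687, 688, 698, 700 and 703). Neither the labels nor the paper link these numbers to genotypes, and the tissue of the files is inferred from the labels. The values are therefore given library by library, and Larp1 cKO was not compared with Larp1 WT.

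Oligodendrocyte precursor cells are proliferating glia that persist in the adult cortex and give rise to the myelinating oligodendrocytes. They divide in response to platelet-derived growth factor, carry the NG2 proteoglycan on their surface, and pass through a committed stage, marked by Gpr17, before they turn on the myelin genes. Olig1, Olig2 and Sox10 are transcription factors that stay on from the precursor to the mature cell, whereas Pdgfra, Cspg4 and Gpr17 are turned down as the cell matures. In bulk tissue, fewer cells of the lineage and less of an mRNA per cell cannot be told apart.

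The libraries held 34689262 to 44463362 expected counts. Nuclear protein-coding genes held 61.6% to 66.3% of counts but only 22.7% to 28.8% of TPM, with the lowest TPM share in mouse 700 and the highest in mouse 703. A gene whose share among protein-coding mRNAs is constant would thus still have a higher TPM in mouse 703 than in mouse 700, and values are given below on scales with and without that denominator. Larp1 itself ranged from 6.28 to 19.96 TPM. Whether each library comes from a separate mouse is taken from the numbers alone. The 16 other precursor genes listed for the lineage, which include Ptprz1, Vcan and Cspg5, were all detected, as were the 15 genes of newly formed oligodendrocytes and the 16 myelin genes.

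Larp1 binds mRNAs that begin with a terminal oligopyrimidine (TOP) motif, a C at the first base followed by a run of C or T, so the annotated starts of the 6 mRNAs were read first. The first 30 bases are shown for Pdgfra, Cspg4 and Olig2 because the presence or absence of the motif is decided there. Each sequence is given from the first base of the transcript, on the plus strand of GRCm38, with runs of 2 or more C or T in capitals.
Pdgfra, start in GENCODE M21, chr5:75152306-75152335: aTCaaTTacaaaatgcgggTTTTgagCCCa
Pdgfra, start in RefSeq (GRCm38.p6), chr5:75152251-75152280: cagCTaTTTaCTTTaagcaaatgaTTagTT
Cspg4, start in GENCODE M21, chr9:56865033-56865062: aagtaCTggacagCCCTTgcgCCCTagCCC
Cspg4, start in RefSeq (GRCm38.p6), chr9:56865104-56865133: gaCTTgcgaCTTgcgaCTCggtgCTgTCCa
Olig2, start in GENCODE M21, chr16:91225457-91225486: cgCCTCTgCCCCTCCaggaaaagcacaTTg
Olig2, start in RefSeq (GRCm38.p6), chr16:91225550-91225579: CCagcggaaCCCCgaaaggtgtggatgCTT

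A first C followed by at least 4 pyrimidines began the leading transcript of 0 of the 6 genes, beside 321 of 13625 detected protein-coding genes (2.36%). The count was also 0 when any annotated transcript of a gene could carry the motif, where 10.7% of genes did. The 3 RefSeq starts printed above did not have it either, and 2.51% of the 32851 RefSeq windows did. Olig2 came nearest, since its GENCODE transcript opens with a single C before a G and the run cCTCT follows within the first bases. When the motif was allowed to begin up to 5 bases after the first base, Olig2 was the 1 gene of 6 with a match. The same rule matched 1475 of 13625 genes (10.8%). GENCODE and RefSeq place these starts at different bases for all 3 genes, and an annotated start is not a measured one.

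Pdgfra encodes the receptor for platelet-derived growth factor A, the signal that keeps precursor cells dividing, and lies on chromosome 5 from 75152292 to 75198215. Its level was 10.14 TPM in mouse 678, 8.15 in 687, 10.35 in 688, 11.46 in 698, 8.09 in 700 and 12.96 in 703. Mouse 703 stood highest, and mice 687 and 700 were lowest and within counting error of each other. The highest library was 1.60 times the lowest, with a 95% counting interval of 1.5 to 1.71 by the exact binomial method. Such intervals cover counting error only and are given for libraries picked as the extremes. They also treat all counts of a gene alike. A short Pdgfra transcript with only 73.12 to 156.36 counts held 14.1% to 29.9% of its TPM. The interval for Pdgfra therefore understates the counting error. On TMM-scaled CPM, a share of counts not divided by length, which adjust for composition and leave the TPM denominator out, Pdgfra ran from 44.4 in mouse 687 to 54.6 in mouse 703, a ratio of 1.23.

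Cspg4 encodes the core protein of NG2, the chondroitin sulphate proteoglycan by which these cells are also called NG2 glia. It lies on chromosome 9 from 56865033 to 56899870 and was the lowest of the 6 genes. Its level was 2.80 TPM in mouse 678, 2.46 in 687, 2.83 in 688, 2.76 in 698, 2.53 in 700 and 3.11 in 703. The 6 libraries lay close together, with a highest-to-lowest ratio of 1.26 (95% counting interval 1.15 to 1.39). On the TMM scale the ratio was 1.19, from 19.0 CPM in mouse 687 to 22.6 CPM in mouse 700. Mouse 700 was thus low in TPM and highest as TMM-scaled CPM, where mouse 688 was close to it at 22.5 CPM.

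Olig2 and Olig1 encode basic helix-loop-helix transcription factors, of which Olig2 specifies the lineage and Olig1 is known for its part in maturation and repair of myelin. They are neighbours on chromosome 16, Olig2 from 91225457 to 91228677 and Olig1 from 91269772 to 91271933, both on the plus strand with 41094 bases between them. Olig1 was the most abundant of the 6 genes, at 25.93 TPM in mouse 678, 24.64 in 687, 21.28 in 688, 29.11 in 698, 20.48 in 700 and 24.63 in 703. Olig2 was measured at 5.68 TPM in mouse 678, 6.27 in 687, 5.55 in 688, 5.02 in 698, 4.83 in 700 and 6.14 in 703. The extremes of the pair did not match, since mouse 698 had the highest Olig1 and the second lowest Olig2.

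The ratio of Olig1 to Olig2 within a library does not depend on scaling between libraries. It was 4.57 in mouse 678, 3.93 in 687, 3.83 in 688, 5.80 in 698, 4.24 in 700 and 4.01 in 703. Mouse 698 was highest, with a 95% counting interval of 5.21 to 6.46, while the lowest library, mouse 688, had one of 3.48 to 4.23. Olig1 exceeded Olig2 in all 6 libraries. On the TMM scale Olig2 was highest in mouse 687 (15.4 CPM) and lowest in mouse 698 (11.6 CPM), and Olig1 was highest in mouse 698 (56.8 CPM) and lowest in mouse 688 (42.7 CPM).

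Sox10 encodes the SRY-box factor that directly activates myelin genes and is needed for terminal differentiation, and it lies on the minus strand of chromosome 15 from 79154908 to 79165240. Its level was 8.88 TPM in mouse 678, 6.24 in 687, 7.02 in 688, 9.03 in 698, 6.90 in 700 and 7.61 in 703. Mice 678 and 698 stood above the other 4 libraries, with a highest-to-lowest ratio of 1.45 (95% counting interval 1.31 to 1.60). Of the 6 genes it kept the widest spread on the TMM scale, with a ratio of 1.39 between 22.7 CPM in mouse 678 and 16.3 CPM in mouse 687.

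Gpr17 encodes a G protein-coupled receptor of committed precursors that is lost when myelination begins. It lies on chromosome 18 from 31942997 to 31949636, where Lims2 overlaps it on the opposite strand at 1.98 to 3.98 TPM. The level of Gpr17 was 9.38 TPM in mouse 678, 8.06 in 687, 8.86 in 688, 9.28 in 698, 7.59 in 700 and 11.12 in 703. Mouse 703 again stood highest and mouse 700 lowest, for a ratio of 1.47 (95% counting interval 1.37 to 1.56). On the TMM scale the 6 libraries lay between 42.1 and 48.7 CPM, a ratio of 1.16, the narrowest of the 6 genes. The ratio of Gpr17 to Pdgfra within a library, free of any scaling between libraries, lay between 0.810 in mouse 698 and 0.989 in mouse 687. This ratio uses the sum of all annotated Pdgfra transcripts.

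**Figure D1:**
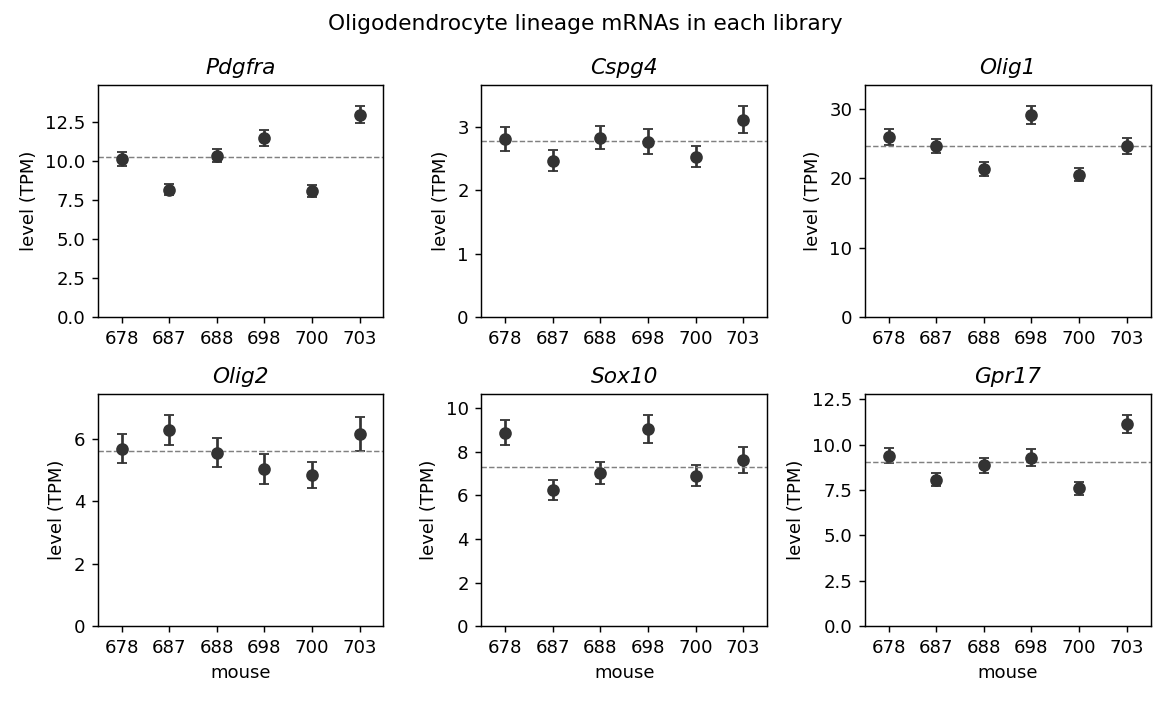
Level of each of the 6 genes in TPM (vertical axes, from 0) in each of the 6 libraries, named by mouse number. Points are single libraries, bars are 95% Poisson counting intervals and the dashed line is the median of the 6 libraries. Pdgfra, Cspg4 and Gpr17 were highest in mouse 703, while Olig1 and Sox10 were highest in mouse 698 and Olig2 in mouse 687.

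By median TPM the order was Olig1 (24.6), Pdgfra (10.2), Gpr17 (9.07), Sox10 (7.32), Olig2 (5.62) and Cspg4 (2.78). Olig1 was apart from all others, as its lowest library at 20.48 TPM exceeded the highest value of Pdgfra at 12.96 TPM. Pdgfra exceeded Gpr17, and Gpr17 exceeded Sox10, in all 6 libraries, although their ranges over libraries overlapped. The place of Pdgfra above Gpr17 rests on the sum of its annotated transcripts. Its leading transcript alone, at 4.46 to 7.80 TPM, was below Gpr17 in every library. Sox10 exceeded Olig2 in 5 of 6 libraries, so these neighbours did not differ beyond their spread. Cspg4 was below Olig2 in every library and its range did not touch that of Olig2. Among all 15013 detected genes, Olig1 stood at percentile 84.0 of median TPM, Pdgfra at percentile 64.3 and Cspg4 at percentile 33.2.

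Summed over the 6 genes, the level was 62.81 TPM in mouse 678, 55.82 in 687, 55.89 in 688, 66.66 in 698, 50.42 in 700 and 65.57 in 703, with a median of 59.35. Olig1 gave the largest part of this sum in every library, 37.6% to 44.1% of it. Pdgfra gave 14.6% to 19.8%, Gpr17 13.9% to 17.0%, Sox10 11.2% to 14.1%, Olig2 7.53% to 11.2% and Cspg4 4.14% to 5.06%. The highest library was 1.32 times the lowest on the TPM scale, 1.17 times as TPM over nuclear protein-coding genes alone, and 1.11 times as TMM-scaled CPM. Leaving out mouse 700 lowered the TPM ratio to 1.19. The share of TPM held by nuclear protein-coding genes, lowest in mouse 700 and highest in mouse 703, moved with the sum, which was also lowest in mouse 700 and second highest in mouse 703.

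**Figure D2:**
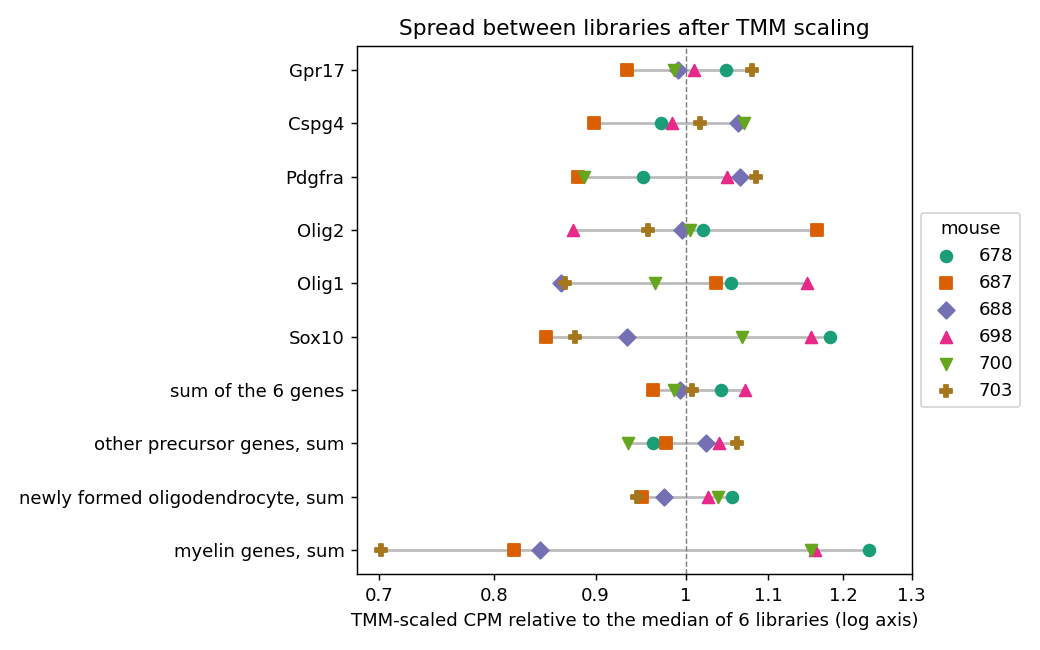
TMM-scaled CPM of each of the 6 genes, of their sum and of the summed genes of 3 other lists for the lineage, relative to the median of the 6 libraries (horizontal log axis). Each symbol is 1 library and the grey line spans all 6, with the summed myelin genes spanning a ratio of 1.76, Sox10 1.39 and Gpr17 1.16.

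How much these genes differed between libraries was set against all detected genes. For each gene, the standard deviation (SD) of log2(CPM + 1) over the 6 libraries, less the running median SD of genes with a similar mean, was taken as its excess variability, and the 751 genes in the top 5% of all 15013 were called most variable. None of the 6 genes, 0 of 6, was among them. At a share of 5% such a count is common for so few genes. Sox10 came nearest at percentile 85.9 of excess variability (SD 0.19), followed by Olig1 at percentile 80.7 (SD 0.16) and Pdgfra at percentile 70.5 (SD 0.13). Olig2, at percentile 54.5 (SD 0.12), lay near the middle of all genes, whose median SD was 0.12. Cspg4 at percentile 32.0 (SD 0.09) and Gpr17 at percentile 26.4 (SD 0.07) lay below it. The median SD of the 6 genes was 0.13. The count stayed at 0 under all 11 alternative settings, including no filter, where Sox10 reached its highest value, percentile 88.6 of 28086 genes.

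**Figure D3:**
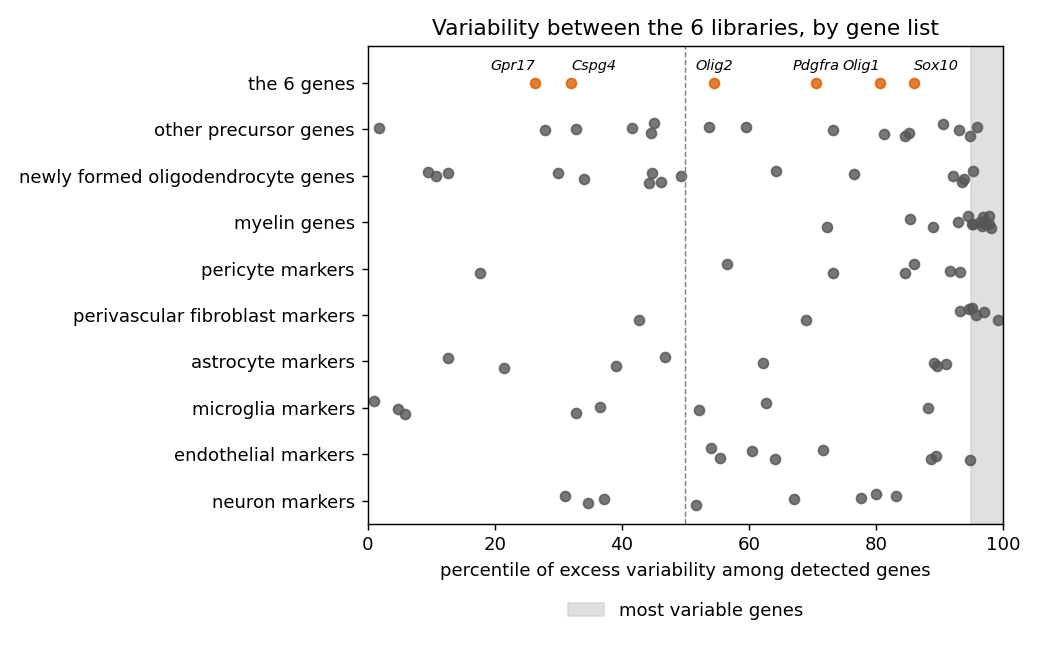
Percentile of excess variability among the 15013 detected genes (horizontal axis) for each gene of 10 lists (rows), with vertical scatter added for legibility except in the top row. The grey band is the top 5%, which holds 0 of the 6 genes and 11 of 16 myelin genes, and the dashed line marks the middle of all genes.

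Genes listed for the later stages of the lineage were measured in the same libraries for comparison. The myelin genes, which mature oligodendrocytes express, had 11 of 16 members among the most variable genes, against the background of 5%. This list was chosen with earlier results of these data known. Mbp, the major basic protein of myelin, had a median of 243 TPM (192 to 319), and Mag, an adhesion protein of the inner myelin wrap, ran from 29.74 to 51.11 TPM. As TMM-scaled CPM the summed myelin genes were 1972 in mouse 678, 1306 in 687, 1347 in 688, 1852 in 698, 1844 in 700 and 1119 in 703. Mice 678, 698 and 700 lay above the other 3 libraries, and all 16 myelin genes had their lowest TMM-scaled CPM in mouse 703. Sox10 placed the libraries in the same order over the first 4 (678, 698, 700 and 688), and the last 2 were exchanged, with mouse 687 below mouse 703. The summed Pdgf ligands and receptors had the order of Sox10 in all 6 libraries, so this likeness is not particular to the myelin genes. Values of Sox10 and of the summed myelin genes each fell into separate clusters on this scale, and their relation was not tested. The count of most variable myelin genes fell to 5 when variability was computed on log2(TPM + 1), and lay between 8 and 12 under the other alternatives at the 5% limit.

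Among the 16 other precursor genes, only Lhfpl3, a tetraspan-type membrane protein gene, was called most variable, and it ran from 3.25 TPM in mouse 700 to 8.46 in mouse 703. On the TMM scale 9 of the 16 had their highest library in mouse 703 and 6 in mouse 698, while 4 were lowest in mouse 703. Pdgfra and Gpr17 were also highest in mouse 703. The share of all detected genes with their highest or lowest value in mouse 703 was not counted. Counts by library in this and the other lists therefore have no background beside them. Cacng4, an auxiliary subunit of AMPA receptors, ran from 6.04 TPM in mouse 700 to 12.99 in mouse 703. The count of 1 of 16 became 0 without mouse 703, 3 with no filter and 4 on log2(TPM + 1), the scale on which the myelin count was 5 of 16, so the contrast between these lists depended on the scale. Cspg5, a transmembrane proteoglycan that neurons also express, had a median of 112 TPM, and Ptprz1, a receptor phosphatase, 23.7 TPM, so the most abundant genes of this list exceeded all of Pdgfra, Cspg4 and Gpr17.

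Of 15 genes of newly formed oligodendrocytes, Myrf, the membrane-bound factor that switches on myelin genes together with Sox10, was the 1 gene among the most variable. The count was 0 without mouse 678, 2 without mouse 703, 0 with a pseudocount of 0.25, 0 on log2(TPM + 1) and 3 with no filter. Myrf ran from 5.07 TPM in mouse 703 to 7.50 in mouse 678. Bcas1, a marker of early myelinating cells, was highest in mouse 678 at 19.54 TPM and lowest in mouse 687 at 11.79 TPM. In TPM Sox10 was also lowest in mouse 687 but highest in mouse 698. Sirt2 and Nfasc, the most abundant genes of this list, had medians of 34.9 and 34.5 TPM. The summed list had a highest-to-lowest ratio of 1.12 on the TMM scale, beside 1.11 for the 6 genes, 1.13 for the other precursor genes and 1.76 for the myelin genes. Each sum is weighted toward its most abundant genes. Nfasc had 8206 to 10122 counts per library, and Cspg5 among the other precursor genes 7908 to 9146. The cells behind these counts were not tested, so the ratios describe gene lists and not stages of the lineage. The difference in spread between these sets was not tested, and the 6 libraries mix both genotypes.

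Ligands and receptors of the Pdgf pathway gave a second view of Pdgfra. Pdgfa, its main ligand in brain, was measured at a median of 15.7 TPM (12.69 to 17.20), and exceeded Pdgfra in all 6 libraries, although the ranges of the genes overlapped. Pdgfb had a median of 7.48 TPM, and its receptor Pdgfrb, which marks pericytes, had one of 3.05 TPM (2.73 to 3.56). None of the 5 genes of this list was among the most variable, which the share of 5% over all detected genes makes likely for so few.

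Partners and relatives of the transcription factors were read from a list of 10 genes. Tcf4, an E protein with which Olig factors pair on DNA, had a median of 102 TPM (93.84 to 118.53). Id2 and Id3, which sequester E proteins, had medians of 58.7 and 12.025 TPM. Sox8, a SoxE relative that shares functions with Sox10, ran from 8.80 TPM in mouse 687 to 15.56 in mouse 688 and exceeded Sox10 in all 6 libraries. Olig3, the third Olig gene, was listed at 0 to 0.09 TPM, with at most 6 counts in a library. None of the 9 detected genes of this list was among the most variable, again likely for so few at the background of 5%.

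Relatives of the NG2 proteoglycan and of Gpr17 completed the surface proteins. Bcan, the brain-specific proteoglycan brevican, had a median of 51.9 TPM, far above the 2.78 TPM of Cspg4, whereas Vcan at 2.20 TPM was near it and Acan at 0.61 TPM below it. P2ry12, a purinergic receptor that marks microglia and is related in sequence to Gpr17, had a median of 15.4 TPM and exceeded Gpr17 in all 6 libraries. P2ry13 followed with a median of 2.72 TPM. None of the 6 proteoglycan genes and none of the 4 detected receptors was among the most variable. For lists this short that is likely at the background of 5%.

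Pdgfra and Cspg4 are also expressed outside the lineage, Pdgfra by perivascular fibroblasts and Cspg4 by pericytes, the mural cells of brain capillaries. Of 8 perivascular fibroblast markers, all were detected, with a summed level of 84.8 TPM in mouse 703 to 124.5 in mouse 678. Of these markers 4 were among the most variable (Dcn, Igf2, Slc6a13 and Apod), beside 5% of all detected genes. Apod is also expressed by mature oligodendrocytes. Without mouse 700 or without mouse 703, 2 of these 8 markers were among the most variable. On the TMM scale 7 of the 8 were lowest in mouse 703, the library in which Pdgfra was highest. The share over all detected genes was not counted. Mouse 703 was also lowest for 16 of 16 myelin genes and 5 of 8 astrocyte markers. It was lowest for 0 of 8 markers each of neurons, microglia and endothelial cells. A low value in mouse 703 is thus not particular to the fibroblast markers. Of 8 pericyte markers 7 were detected, with a summed level of 27.8 to 36.2 TPM. They were lowest in mouse 703 and highest in mouse 687 on the TMM scale, and Cspg4 was lowest in mouse 687. The part of these cells in the levels of Pdgfra and Cspg4 was not tested.

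Markers of the remaining cortical cells gave the setting of these values. Summed neuron markers ran from 2121 TPM in mouse 700 to 3027 in mouse 703, led by Snap25 and Camk2a. Summed astrocyte markers ran from 800 TPM in mouse 700 to 955 in mouse 703, led by Slc1a2 and Aldoc. Endothelial markers summed to 28.1 to 42.02 TPM, led by Ly6c1 and Itm2a. Csf1r, the growth factor receptor of microglia, had a median of 25.5 TPM (23.08 to 34.59). No gene of the neuron, astrocyte and endothelial lists was among the most variable, beside 5% of all detected genes, and each list was short. Of 8 proliferation genes 5 were detected in every library, led by Pcna, the sliding clamp of DNA replication, at a median of 13.04 TPM, while Top2a, the topoisomerase of dividing cells, had a median of 0.195 TPM (0.06 to 0.32).

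The transcripts behind each gene were examined next. Olig1, Olig2 and Gpr17 have 1 annotated transcript each. The leading transcript of Cspg4, a coding transcript of 8121 bases, held 82.9% to 99.4% of Cspg4 TPM, with a median of 93.9%. The leading transcript of Sox10, of 2713 bases, held all of its TPM in mice 678, 688 and 703, 87.5% in mouse 687, 90.6% in mouse 700 and 78.5% in mouse 698. The rest of Sox10 in those 3 libraries was mostly a coding transcript of 2780 bases. The authors' estimates thus assigned 156.17 counts to this longer transcript in mouse 698 and 0 in mouse 678, and reads shared by such transcripts are divided by a model, so these shares are uncertain.

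Pdgfra was the 1 gene of the 6 with a large share outside its leading transcript. Pdgfra-201, with 23 exons and 6549 bases, held 60.16% of Pdgfra TPM in mouse 678, 72.39% in 687, 68.99% in 688, 56.46% in 698, 55.13% in 700 and 60.19% in 703. Pdgfra-207, of 1561 bases in 9 exons and annotated as a non-stop decay transcript, held 26.43% in mouse 678, 14.11% in 687, 17.78% in 688, 23.82% in 698, 29.91% in 700 and 23.30% in 703. Its counts were small, at 73.12 to 156.36 per library, and the large share of TPM arises by arithmetic from its short length. As a share of counts, Pdgfra-201 held a median of 80.4% and Pdgfra-207 one of 6.91%. Pdgfra-202, a coding transcript of 6834 bases, held 4.79% to 10.4% of TPM. The 2 libraries with the lowest Pdgfra level, mice 687 and 700, had the lowest and the highest share of Pdgfra-207.

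The end of Pdgfra-207 is shown because only 79 of its 1561 bases distinguish it from Pdgfra-201, apart from its start. It shares exons 1 to 9 and then runs on for 79 bases to 75175150, into the intron before the next exon of Pdgfra-201 at 75176667. In the sequence of the boundary on the plus strand of GRCm38, lower case marks the last 15 bases shared with exon 9 of Pdgfra-201 and capitals mark the first 15 bases of the extension.
Pdgfra-207, end of shared exon and start of extension, chr5:75175057-75175086: caagcatattaagaaGTATGGAAACCAGAT
The extension opens with GT, the bases at which introns usually begin.

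**Figure D4:**
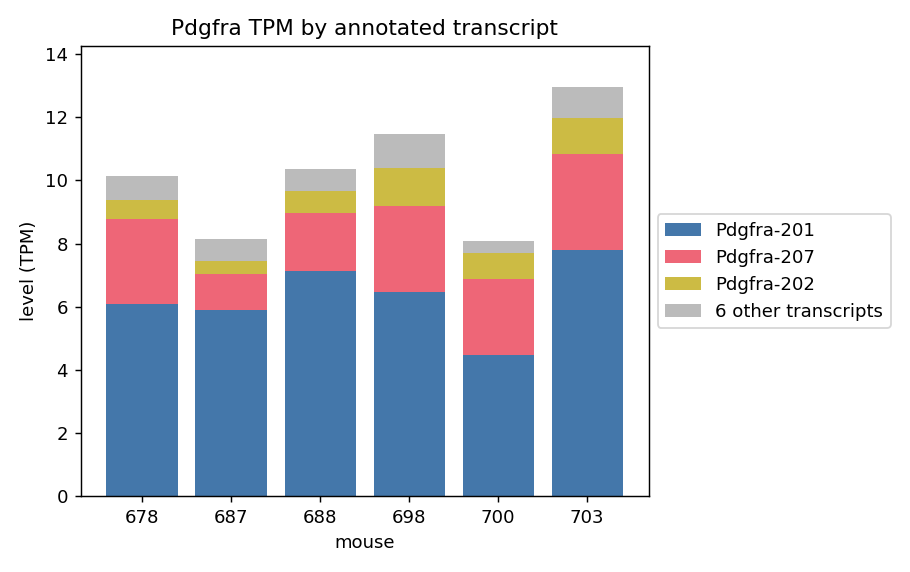
Pdgfra TPM (vertical axis, from 0) in each library, named by mouse number, divided among Pdgfra-201, Pdgfra-207, Pdgfra-202 and the 6 other annotated transcripts. Pdgfra-201 is the largest part in every library, from 4.46 TPM in mouse 700 to 7.80 in mouse 703, and Pdgfra-207 ranges from 1.15 TPM in mouse 687 to 3.02 in mouse 703.

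Whether the 6 genes varied together over libraries was tested for all 15 pairs on log2 TPM, with a two-sided exact permutation test over the 720 pairings. Pdgfra and Gpr17 gave Pearson r = 0.948 (exact p = 0.00972) and Spearman rho = 0.829 (exact p = 0.0583), with n = 6 libraries. Pdgfra and Cspg4 gave r = 0.943 (exact p = 0.0139) and rho = 0.771 (exact p = 0.103). Cspg4 and Gpr17 gave r = 0.941 (exact p = 0.0153) and rho = 0.771 (exact p = 0.103). These 3 pairs of surface proteins were the only ones of 15 with an unadjusted p below 0.05, and none passed after Benjamini-Hochberg adjustment over the 15 pairs (exact permutation test, adjusted p = 0.0764 for each). Without the 2 libraries farthest from the median of the first gene, r was 0.891, 0.867 and 0.912. All of these pairs share the TPM denominator, and the share of TPM held by nuclear protein-coding genes was also highest in mouse 703 and lowest in mouse 700.

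On the other scales a relation could be given only where neither gene fell into separate clusters, which held for 6 pairs as TMM-scaled CPM and 10 pairs as TPM over nuclear protein-coding genes. None of those pairs reached an unadjusted p of 0.05, and the smallest adjusted p of the exact permutation test was 0.533 and 0.493. Cspg4 and Gpr17 then had r = 0.343 as TMM-scaled CPM, and Pdgfra and Cspg4 had r = 0.486 as TPM over nuclear protein-coding genes. For Pdgfra and Gpr17, the pair with the largest r in TPM, 1 gene fell into separate clusters on each scale. This was Pdgfra as TMM-scaled CPM and Gpr17 as TPM over nuclear protein-coding genes. No pooled r is therefore given for the pair there, although on the latter scale the genes placed all 6 libraries in the same order. The libraries mix genotypes, so a relation across them and a difference between genotypes cannot be told apart. No relation of the summed 6 genes with the other 14 lists was given on log2 TPM, since the sum itself fell into separate clusters. As TMM-scaled CPM 8 lists could be used, and the smallest adjusted p of the exact permutation test was 0.367, for the Pdgf ligands and receptors (r = 0.827, with 0.637 left without 2 libraries).

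The genes most like each of the 6 were ranked by Pearson r of log2(TPM + 1) over the 6 libraries, as a description. For Pdgfra these were Rapgef1, Fancg and Mapk14, for Cspg4 Rab35, Cyfip2 and Zfp84, and for Gpr17 Pa2g4, Fam177a and Selplg. For Olig1 they were Npepl1, Cers2 and Ahcyl2, for Olig2 Zfp51, Mb21d2 and Nrg1, and for Sox10 Mosmo, Zfp148 and AC109619.1. These r lay between 0.987 and 0.999, and with 6 libraries such values are common. Among 15009 genes, 1650 had r above 0.9 with Pdgfra, 1836 with Gpr17 and 1237 with Cspg4, against 214 with Olig1, 256 with Olig2 and 274 with Sox10. None of the 6 genes was among the 3 nearest of another, and Gpr17 ranked 544th for Pdgfra. Olig1 ranked 9917th for its neighbour Olig2 (r = 0.15), and Sox10 ranked 1916th for Olig1 (r = 0.69).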

How the data were processed

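RNA-seq values of 6 numbered mice were used. According to the methods, reads were trimmed (cutadapt), aligned to mm10 (STAR) and quantified (RSEM). Gene-level values are named there, whereas the files list transcripts, and tool versions were not given in the sources used here. For each of 142351 transcripts the authors deposited expected counts, not normalized, and TPM, whose denominator is mostly RNA other than nuclear protein-coding mRNA. Per the labels the libraries were made from rRNA-depleted RNA with a directional kit, while the methods name a kit without that word, so strand is taken as uncertain for overlapping genes.

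Identifiers were looked up in GENCODE M21 (99.4% matched, 910 did not) and values summed per gene. Of 18 further columns of per-sample values, none was used. Counts were rounded and scaled with edgeR 4.0.16 (TMM) in R 4.3.3, and with DESeq2 1.42.0 size factors as an alternative. Other steps used Python 3.11.15 with numpy 2.4.6, scipy 1.17.1 and pandas 2.3.3, and the ranking of variable genes was tested on simulated data. Values were called clustered where their widest gap on the log2 scale was larger than the range of the values on each side of it. Counting intervals were 95% exact binomial or Poisson, on the summed counts of a gene. Promoter windows from RefSeq (GRCm38.p6) listed 3 of the 6 genes when chromosome 18, where Gpr17 lies, was left out. The TOP motif was read as a first C and at least 4 further C or T.

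The comparison of genotypes, planned with edgeR's quasi-likelihood test, was not run because mouse numbers could not be linked to genotypes. Genes named beyond the 6 were, from each of 14 lists, the 2 with the highest levels and the 2 of largest excess variability, not all of them printed, and for each gene the 3 most alike. Larp1, the targeted gene, was named too, and Olig3 was added after its values were seen. The 6 genes and all lists were chosen with earlier results of these data known. Alternatives were other units and scalings, no filter on low counts, a pseudocount of 0.25 in place of 1, the top 10%, each library left out in turn and other motif rules. Depth limits the statements on genes with few counts. The summed level of the microglia markers is not reported here.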

Additional observations from a re-analysis of the deposited data

Results flagged for a closer look

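One value stood apart from the other libraries by Dixon's ratio. The summed TPM of the 8 neuron markers was 3027.32 in mouse 703, while the other 5 libraries lay between 2120.82 and 2457.68, and the ratio of 0.628 was just above the 95% critical value for 6 values. Among 26 values examined, 1 was set apart, and chance alone sets apart about 1 in 20. Mouse 703 was also the highest library for Pdgfra, Cspg4 and Gpr17 on the TPM scale and for the share of TPM held by nuclear protein-coding genes (28.8%). None of the 6 genes nor their sum was set apart in any library.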

How the results depend on the processing

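The count of 0 of the 6 genes among the most variable held under all 11 alternatives. With 5% of all detected genes called, such a count is common for so few genes. The median summed TPM moved by less than the spread between libraries when each library was left out. For the summed 6 genes, the highest library was 1.32 times the lowest in TPM, and this ratio was 1.15 as a share of expected counts, 1.17 as TPM over nuclear protein-coding genes, 1.11 as TMM-scaled CPM and 1.118 with DESeq2 size factors. With each library left out in turn it lay between 1.19 (without mouse 700) and 1.32. The cause was not tested; of these scales, TPM over nuclear protein-coding genes changes the denominator alone, and the other 3 also drop the division by length. The ratio of Pdgfra, 1.60 in TPM, fell to 1.23 as TMM-scaled CPM and to 1.42 without mouse 703, and that of Gpr17 from 1.47 to 1.16 and to 1.24. The count of genes with a TOP motif at the annotated start, 0, became 1 (Olig2) when the motif could begin up to 5 bases after the first base. Of 16 myelin genes, 5 to 13 were among the most variable under the same 11 alternatives, which for this and the other gene lists were added after seeing the data. No paired analysis was possible because no source used here ties the mouse numbers to the replicate numbers of the labels. Olig2 had the fewest counts of the 6 genes in every library, which limits statements on its order between libraries.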
